A study of Mus musculus with 9 samples.

Results

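Whole eyes of BALB/c mice were compared with whole eyes of C57BL/6J mice across all genes by sequencing of poly(A) RNA. The comparison used the 3 BALB/c and the 3 C57BL/6J libraries, 6 of the 9 libraries of the series. All 6 came from wild-type female mice of 4 weeks that carried no transgene or treatment, and each library was made from the pooled RNA of 5 mice. The labels do not name a BALB/c substrain, nor whether each library had its own pool of mice. The p-values therefore reflect only how these libraries varied, and that variation may be technical. Levels are given as RPKM, which scales the reads of a gene by its length and by the reads of the library. Of 13089 genes listed, 12780 were tested and 309 were too low to be tested.

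BALB/c is an albino strain and C57BL/6J a pigmented one. Albino mice carry a mutated tyrosinase and make no melanin in the iris, choroid and retinal pigment epithelium, and their retinas tolerate bright light poorly. Many further loci differ between the strains, among them the MHC haplotype, a deleted H2-Ea promoter and a deletion in Nnt in C57BL/6J, and a retroviral insertion in Zhx2 in the BALB/cJ substrain. A whole eye holds neural retina, pigment epithelium, lens, cornea, ciliary body, iris, sclera and remnants of muscle, gland and nerve. In bulk tissue, fewer cells of a type and less RNA per cell cannot be told apart.

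The 3 BALB/c libraries resembled each other closely, with Spearman correlations of 0.99 to 0.996 across genes and a median within-strain SD of 0.1 on the log2 scale. The C57BL/6J libraries were less alike, with correlations of 0.908 to 0.981 and a median SD of 0.24. C57BL/6J 3 stood apart, at 57.9 on a first principal component that held 55.1% of the variance, against -21.6 to -19.5 for BALB/c and 1.1 and 3.2 for C57BL/6J 1 and 2. Markers of rods, cones, bipolar, amacrine and ganglion cells, Mueller glia, pigment epithelium, melanocytes, lens, cornea, muscle, endothelium and microglia were above 0 in every library. Grm6, Tfap2b, Best1, Lcn11 and the lymphocyte markers Cd3e and Cd79a were not analysed here. The blood markers summed to 4.09 to 6.1 RPKM in BALB/c and to 1.66, 9.04 and 30.4 RPKM in C57BL/6J 1, 2 and 3, and 2 of the 3 were at 0 in some library.

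In BALB/c eyes, vasopressin, oxytocin, Npy, somatostatin and 12 of 45 interferon-induced genes stood higher than in C57BL/6J eyes, and the cone phosphodiesterase Pde6c, 2 alcohol dehydrogenases and the repressor Zhx2 stood lower. The linear model fitted to all genes with limma called 389 genes at an adjusted p under 0.05, which is 3.04% of those tested. BALB/c was higher for 239 (1.87%) and lower for 150 (1.17%). Of the called genes, 230 differed by at least 1 on the log2 scale (1.8%), 138 of them higher and 92 lower, and the median size of a called change was 1.11. The median change over all genes tested was -0.01, with quartiles of -0.18 and 0.16, and an unadjusted p under 0.05 was reached by 2053 genes. The values of the strains did not overlap for any of the 389 called genes, against 4273 (33.4%) of all genes tested.

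The count of called genes depended on single libraries. It was 117, 115 and 104 without BALB/c 1, 2 and 3, 290 and 274 without C57BL/6J 1 and 2, and 1625 (900 higher, 725 lower) without C57BL/6J 3. A set of 97 genes, 61 higher and 36 lower in BALB/c, was called in the full comparison and in all 6 omissions of a library. Those genes are described below as kept in every omission. Of the 97, 33 share at least 20% of their 31-base sequences (31-mers) with another locus, so that their levels are uncertain. The same holds for 91 of the 389 called genes and 454 of the 12780 tested. With values as deposited, without scaling between libraries, the median of all genes shifted to -0.17 and the calls were 143 higher and 207 lower. After correction of each library for its trend with transcript length, an alternative chosen after the data were seen, they were 177 higher and 171 lower. No gene called here was called in the opposite direction under any alternative.

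**Figure D1:**
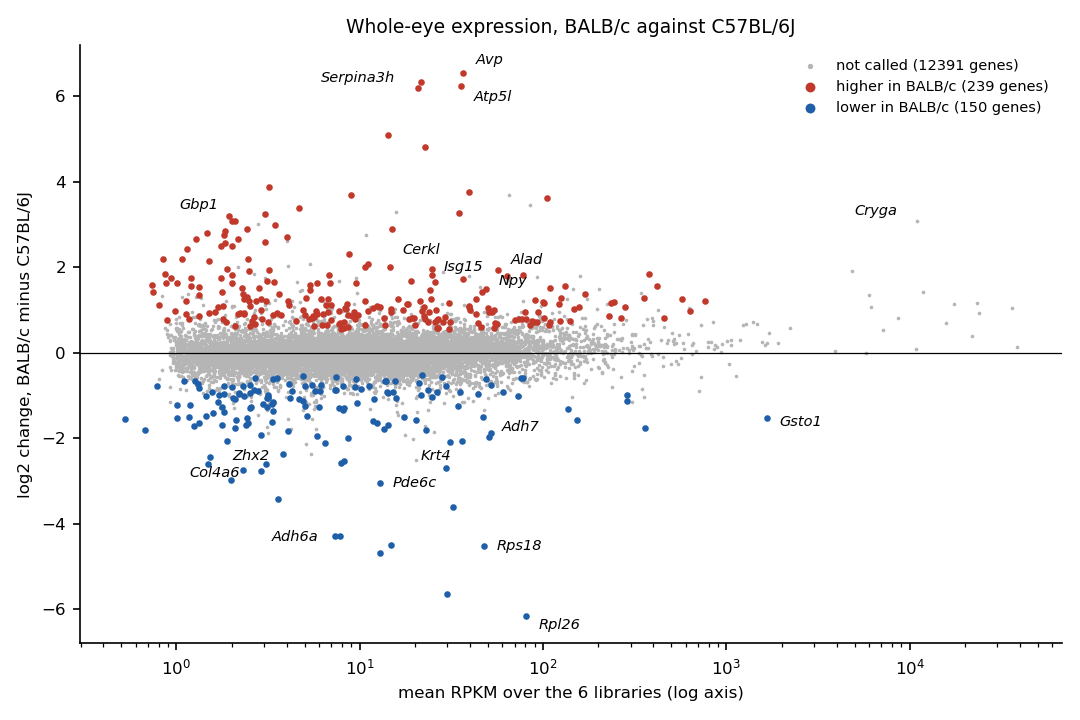
Each point is a gene, with its mean RPKM over the 6 libraries on the log x axis and its log2 change, BALB/c minus C57BL/6J, on the y axis. Red points (239 genes) were called higher in BALB/c, blue points (150 genes) were called lower, and grey points were not called; the most abundant genes, at the right, are crystallins, none of which was called.

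To check the labels, genes with known alleles in these strains were examined first. H2-Ea, an MHC class II chain whose promoter is deleted in C57BL/6 mice, was at 6.77, 6.09 and 6.32 RPKM in BALB/c and had a listed value of 0 in each of the 3 C57BL/6J libraries (adjusted p = 2.4e-05). Zhx2, a homeobox repressor, was at 0.73, 0.85 and 0.8 RPKM in BALB/c, against 6.58, 6.94 and 6.92 RPKM in C57BL/6J (adjusted p = 0.00015, log2 change -2.36, SE 0.12). The groups did not overlap for either gene, and both calls were kept in every omission. The shared sequence of H2-Ea was not determined. The other members of the Zhx family were not called, at log2 changes of -0.32 for Zhx1 and -0.05 for Zhx3. Nnt, the mitochondrial transhydrogenase disrupted in C57BL/6J, averaged 6.66 ± 0.085 RPKM in BALB/c and 4.43 ± 0.612 RPKM in C57BL/6J (SD, n = 3 each) without passing the test (log2 change 0.71, adjusted p = 0.051), and 47.4% of its exon length overlapped another gene. Tyr, which encodes tyrosinase, averaged 22.1 ± 1.58 RPKM in BALB/c eyes and 20.3 ± 4.61 RPKM in C57BL/6J and was not called (adjusted p = 0.55, log2 change 0.31, SE 0.22). Wdfy1, an endosomal adaptor gene, was higher in BALB/c (10.5 ± 0.331 against 3.03 ± 0.416 RPKM, log2 change 1.81, adjusted p = 0.00038) and kept in every omission. Of 20 tested genes with known alleles in these strains, 3 were called higher and 3 lower (30%, against 3.04% of all genes), with a median of 0.32. The calls of Gulo, Entpd4 and Slc11a1, which complete that count, were each lost in 3 to 5 omissions (adjusted p up to 0.13, 0.073 and 0.24), and all of the 31-mers of Entpd4 (100%) were found at another locus.

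Neuropeptide genes included one of the largest log2 changes of the comparison. Avp, which encodes vasopressin, was at 63.59, 86.75 and 69.13 RPKM in BALB/c, against 0, 1.06 and 0.27 RPKM in C57BL/6J (adjusted p = 0.00034, log2 change 6.55, SE 0.39). Oxt, the oxytocin gene that lies next to Avp, was at 2.83, 4.81 and 3.4 RPKM in BALB/c, against 0, 0.82 and 0.24 RPKM in C57BL/6J (adjusted p = 0.016, log2 change 2.48, SE 0.36). In both strains Avp exceeded Oxt except in C57BL/6J 1, where both were listed at 0, and BALB/c 2 held the highest value of each. The Oxt call was lost without any of the BALB/c libraries (adjusted p up to 0.096), with a pseudocount of 0.1 (0.052) and after length correction (0.052), and 21.9% of the 31-mers of Oxt are shared with other loci, so that its level is uncertain. Avp shared 17.7% and kept its call in every omission.

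The windows before the start sites of both genes are shown because the neighbours moved together. They are the 150 bases before each start in the RefSeq promoter table of build GRCm38.p6, a genome that derives from C57BL/6J, and no BALB/c sequence was read. Capitals mark the letters CACGTG, an E-box, searched on both strands in windows of 250 bases before to 50 after the start.
Avp, chr2:130582589-130582738, minus strand: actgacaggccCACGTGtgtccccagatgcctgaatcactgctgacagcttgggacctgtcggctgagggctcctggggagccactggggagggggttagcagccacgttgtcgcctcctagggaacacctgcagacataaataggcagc
Oxt, chr2:130576019-130576168, plus strand: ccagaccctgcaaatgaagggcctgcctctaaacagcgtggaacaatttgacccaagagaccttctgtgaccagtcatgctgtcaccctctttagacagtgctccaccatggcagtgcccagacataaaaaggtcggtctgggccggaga
The E-box letters stood once in the Avp window and not in that of Oxt, and 7.15% of all promoter windows hold them.

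Of 14 tested neuropeptide genes, 4 were called higher and 1 lower (35.7%, against 3.04% of all genes), and the median log2 change was 0.46. After length correction the calls were 3 higher and 2 lower and the median 0.20. Npy, a peptide of retinal interneurons and sympathetic fibres, was at 71.77, 61.81 and 75.34 RPKM in BALB/c, against 27.33, 28.33 and 27.7 RPKM in C57BL/6J (adjusted p = 0.0017, log2 change 1.48, SE 0.13). Sst, somatostatin, was at 8.75, 13.28 and 8.98 RPKM in BALB/c, against 3.32, 3.08 and 3.74 RPKM in C57BL/6J (adjusted p = 0.0053, log2 change 1.62, SE 0.18). Npy and Sst were kept in every omission. Cck, cholecystokinin, was the member that fell, to 13 ± 0.624 RPKM in BALB/c, against 29.9 ± 4.62 RPKM in C57BL/6J (log2 change -0.99, adjusted p = 0.0064). Omitting any BALB/c library ended that call (adjusted p up to 0.068). The remaining members were not called and included Vip, Tac1 and Penk1, at log2 changes of -0.43, -0.31 and -0.88. Pomc, the precursor of pituitary hormones, was at 3.09, 3.47 and 2.35 RPKM in BALB/c and at 2.5, 2.29 and 2.51 RPKM in C57BL/6J (log2 change 0.38, adjusted p = 0.29), and the strains overlapped. Whether tissue other than eye took part in the Avp and Oxt values was not tested.

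**Figure D2:**
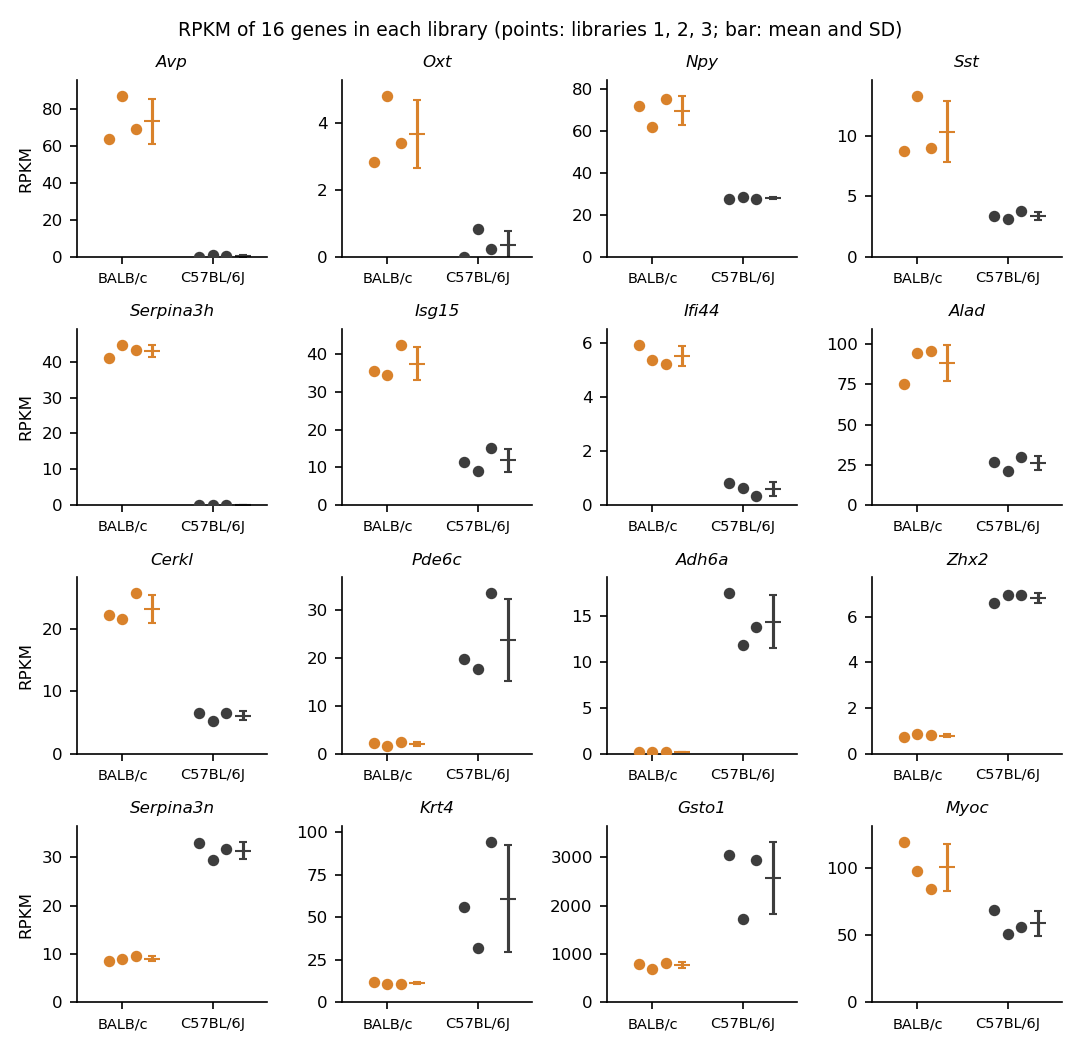
RPKM of 16 genes in each library, with BALB/c on the left (orange) and C57BL/6J on the right (grey) of each panel, 1 point per library and the mean with its SD beside the points. All 16 were chosen from called genes, none of which overlapped between the strains, and 33.4% of all genes tested did not overlap either. C57BL/6J 3 was the highest library for Pde6c and Krt4.

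Interferon-induced genes encode antiviral enzymes, GTPases and ubiquitin-like proteins that cells make after interferon binds its receptor and a factor complex that includes Stat2 and Irf9 enters the nucleus. Of 45 tested, 12 were called higher and 2 lower in BALB/c, which is 31.1% against 3.04% of all genes, with a median of 0.25. The members were not all of the same direction, since 29 lay above 0 and 16 below. Counts over the 6 omissions were 7 to 16 higher and 0 to 4 lower, and 7 genes, all higher, were kept in every omission. With values as deposited the median was 0.09.

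The sequences before the start sites of 3 of these genes are shown because they hold the letters of the interferon-stimulated response element, the DNA element that the factors of the pathway bind. Each is the 150 bases before the start in the same RefSeq table, and capitals mark its core, GAAA followed by any 2 bases and a further GAAA, on either strand.
Isg15, chr4:156200819-156200968, minus strand: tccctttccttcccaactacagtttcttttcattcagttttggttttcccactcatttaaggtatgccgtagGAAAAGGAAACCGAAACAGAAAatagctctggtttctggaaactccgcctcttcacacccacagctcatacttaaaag
Oas3, chr5:120777660-120777809, minus strand: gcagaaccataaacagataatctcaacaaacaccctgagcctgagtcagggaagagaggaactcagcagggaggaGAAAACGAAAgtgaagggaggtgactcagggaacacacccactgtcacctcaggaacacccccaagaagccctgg
Gbp1, listed by RefSeq as Gbp2b, chr3:142594697-142594846, plus strand: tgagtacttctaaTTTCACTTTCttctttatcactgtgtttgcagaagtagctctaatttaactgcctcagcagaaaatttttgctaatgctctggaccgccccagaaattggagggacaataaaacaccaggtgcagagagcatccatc
The capitals of Isg15 hold 3 overlapping matches. This core stood in 6 of 9 called-higher interferon genes that had a window in the table, in 14 of 26 members that were not called, and in 355 of 9906 tested genes (3.58%). A match is a description of the reference letters and not a measured site.

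Among the antiviral effectors, Gbp1, a guanylate-binding protein, reached 4.14, 3.78 and 3.74 RPKM in BALB/c, against 0, 0 and 0.01 RPKM in C57BL/6J (adjusted p = 3.5e-05). H28, which RefSeq lists as Ifi44l, was at 2.77, 2.26 and 2.58 RPKM in BALB/c, against 0, 0 and 0.02 RPKM in C57BL/6J (adjusted p = 9.6e-05), and its neighbour Ifi44 was at 5.93, 5.37 and 5.21 RPKM in BALB/c, against 0.83, 0.63 and 0.34 RPKM in C57BL/6J (log2 change 2.60, adjusted p = 0.00088). These 3 genes were near or at 0 in C57BL/6J and at several RPKM in each BALB/c library. Isg15, a ubiquitin-like modifier, was at 35.42, 34.39 and 42.45 RPKM in BALB/c, against 11.52, 9.07 and 15.11 RPKM in C57BL/6J (adjusted p = 0.0022, log2 change 1.81, SE 0.16). The oligoadenylate synthetases Oas2 (3.2 ± 0.169 against 0.837 ± 0.29 RPKM, log2 change 1.63) and Oas3 (1.99 ± 0.391 against 0.417 ± 0.117 RPKM, log2 change 1.55) rose, as did Ifi27 (34.5 ± 5.31 against 13.8 ± 1.81 RPKM, log2 change 1.46). All 7 of these genes were kept in every omission.

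Of the factors that drive the interferon response, Irf7, which amplifies it, was higher in BALB/c (27.8 ± 1.16 against 16.2 ± 4.93 RPKM, log2 change 0.98, adjusted p = 0.03), while Irf9 (-0.32) was not called. Zbp1, a nucleic acid sensor (log2 change 1.08), Oas1a (1.51), Ifi203 (0.92) and Ifitm2 (0.79) were also called higher. Ifit3 (3.95 ± 0.759 against 12.2 ± 2.86 RPKM, log2 change -1.33, adjusted p = 0.018) and Ifi204 (-1.27) were called lower, whereas Ifit1, a paralogue beside Ifit3, was at 5.16 ± 0.306 RPKM in BALB/c and 5 ± 1.78 RPKM in C57BL/6J. None of these calls was kept in every omission. Irf7 and Ifi203 were lost without each library but C57BL/6J 3 (adjusted p up to 0.18 and 0.19). Zbp1, Oas1a and Ifit3 were lost without any of the BALB/c libraries (up to 0.11, 0.12 and 0.1), Ifitm2 also without C57BL/6J 2 (0.16) and Ifi204 also without C57BL/6J 1 (0.19). Oas1a (68.8%), Ifit3 (61.8%), Ifitm2 (37.4%) and Ifi204 (34.5%) share 31-mers with other loci, so that their levels are uncertain. The microglial markers Cx3cr1, Csf1r and C1qa summed to 28.2 to 29.5 RPKM in BALB/c and to 27.2 to 30.8 RPKM in C57BL/6J. The longer list of 24 tested microglia and macrophage genes leaned lower in BALB/c, with 16 members below 0, 8 above and a median of -0.22.

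MHC and antigen presentation genes were called in both directions. Of 26 tested, 4 were higher (H2-Ea, H2-Q10, H2-Q6 and H2-T10) and 4 lower (H2-Aa, H2-Eb1, H2-DMb1 and H2-D1). These calls were 30.8% of the list, against 3.04% of all genes, and the list median was 0.01. H2-Q10, a class I gene, was at 3.23, 4.29 and 3.19 RPKM in BALB/c, against 0.05, 0.05 and 0.22 RPKM in C57BL/6J (log2 change 2.85, adjusted p = 0.00033), and H2-Q6 at 4.26 ± 0.806 against 0.66 ± 0.252 RPKM (log2 change 2.18). H2-Eb1, the class II chain that pairs with the H2-Ea product, was at 4.42, 3.16 and 4.97 RPKM in BALB/c, against 12.39, 10.82 and 13.26 RPKM in C57BL/6J (log2 change -1.28, adjusted p = 0.01). H2-Ea and H2-Eb1 thus moved in opposite directions. H2-Aa (-0.95), H2-D1 (-0.58), H2-DMb1 (-1.40) and H2-T10 (1.11) completed the calls, and B2m, the shared light chain of class I (log2 change 0.10), H2-K1 (-0.70), H2-Ab1 (-0.56) and Cd74 (-1.33) were not called. H2-Ea, H2-Q10 and H2-Q6 were kept in every omission. H2-Aa and H2-D1 were lost without each library but C57BL/6J 3 (adjusted p up to 0.13 and 0.28), H2-T10 without 4 libraries, kept only without C57BL/6J 2 or 3 (up to 0.17), and H2-Eb1 and H2-DMb1 without BALB/c 1 (0.064 and 0.053). Of the tested members, 9 share at least 20% of their 31-mers with another locus, among them H2-Q6 (51.8%), H2-T10 (50.6%), H2-DMb1 (31.4%), H2-Q10 (30.3%) and H2-D1 (26.9%), and their levels are uncertain. These genes also differ in sequence between MHC haplotypes, and how that touched the reads counted was not tested.

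The remaining immune lists held 1 to 3 calls each, which was 4.17% to 25% of their tested members, against 3.04% of all genes. Of 30 chemokine, cytokine and receptor genes, 3 were lower and 0 higher (10%, against 3.04% of all genes), with a median of -0.30. They were Ccl27, a chemokine of keratinocytes (1.88 ± 0.404 against 9.79 ± 2.31 RPKM, log2 change -1.95, adjusted p = 0.0047), Il1r2, the decoy receptor of interleukin 1 (-1.26), and Il15 (-0.99). Ccl27 was kept in every omission, and its shared sequence was not determined. Il1r2 was lost without any of the BALB/c libraries or C57BL/6J 1 (largest adjusted p 0.16) and Il15 without any of the BALB/c libraries or C57BL/6J 2 (up to 0.14). C1qb (14.7 ± 1.45 against 27.6 ± 1.6 RPKM) and Cfp were the 2 lower of 17 complement genes (11.8% called, median -0.13). Cd52 was the 1 lower of 24 microglia and macrophage genes (4.17% called, median -0.22). Without C57BL/6J 3 the lower calls were 7 for the chemokine list, 6 for complement and 8 for microglia and macrophages. C1qb and Cfp were lost without each library but C57BL/6J 3 (adjusted p up to 0.17 and 0.28), and Cd52 without any of the BALB/c libraries or C57BL/6J 1 (0.21). Of 4 tested lymphocyte genes, Ly6c2 rose (2.08 ± 0.234 against 0.33 ± 0.0866 RPKM, log2 change 1.74, adjusted p = 0.0015), and its 31-mers are shared to 23.8%.

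Serpina3h, a serine protease inhibitor gene of the Serpina3 cluster, had the smallest adjusted p of the comparison. It was at 41.06, 44.54 and 43.36 RPKM in BALB/c, against 0.07, 0.04 and 0.13 RPKM in C57BL/6J (adjusted p = 1.9e-06, log2 change 6.34, SE 0.11). Its neighbour Serpina3n, a gene that reactive glia express, was at 8.54, 8.99 and 9.6 RPKM in BALB/c, against 33.01, 29.47 and 31.75 RPKM in C57BL/6J (adjusted p = 0.00072, log2 change -1.57, SE 0.11). The neighbours thus moved in opposite directions, with no overlap between strains, and both calls were kept in every omission. Serpina3h shares 39.8% and Serpina3n 21.6% of its 31-mers with other loci, so reads could be split between cluster members. The description deposited with Serpina3h names a different member of the cluster in brackets. Serpina3g of the same cluster was not called (log2 change 0.84, adjusted p = 0.096), nor was Serpinf1, pigment epithelium-derived factor (-0.19). Serpina3h and Serpina3n were the only calls among 18 tested serpins (1 higher, 1 lower, 11.1% against 3.04% of all genes, median -0.18). Serpina3n was also the only call among 23 Mueller glia and gliosis genes (median -0.03). Gfap, the intermediate filament of reactive glia, was at 13.27 to 27.11 RPKM in BALB/c and 8.6 to 26.36 RPKM in C57BL/6J and was not called.

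In the rods, photons activate the visual pigment, transducin passes the signal to the phosphodiesterase, and the fall in cyclic GMP closes the channel. None of 20 rod phototransduction genes was called (0%, against 3.04% of all genes), with a median of -0.02 and changes from -0.55 to 0.82. Of the 20, 5 had an unadjusted p under 0.05, against 2053 of the 12780 genes tested. Gnat1, rod transducin (0.05), Pde6b (-0.10) and Cnga1 (-0.08) lay near 0. Sag, rod arrestin, was at 1752, 1675 and 1700 RPKM in BALB/c and at 1296, 1232 and 1134 RPKM in C57BL/6J (log2 change 0.67, adjusted p = 0.068), values that did not overlap but did not pass.

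Cones use paralogues of the same proteins, and here 1 of 11 was called (9.09%, against 3.04% of all genes). Pde6c, which encodes the catalytic part of the cone enzyme, was at 2.18, 1.53 and 2.37 RPKM in BALB/c, against 19.82, 17.67 and 33.47 RPKM in C57BL/6J (adjusted p = 0.00082, log2 change -3.06, SE 0.23). It was kept in every omission and shared no 31-mers with other loci. The cone opsins were not called, Opn1sw at 112 ± 2.99 RPKM in BALB/c and 125 ± 7.86 RPKM in C57BL/6J and Opn1mw at 44.4 ± 3.27 and 63 ± 14.5 RPKM. The remaining cone genes, also not called, were Arr3 (-0.70, adjusted p = 0.077), Gngt2 (-0.62), Slc24a2 (-0.61), Cnga3 (-0.51), Cngb3 (-0.44), Gnat2 (-0.43), Gnb3 (0.00) and Pde6h (0.18). The cone list had a median of -0.44, against -0.01 over all genes, and between -0.49 and -0.34 in the omissions, with 1 to 4 members lower. The gene next to Pde6c on its chromosome, Rbp4, was called in the opposite direction.

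Among 25 outer segment and retinal dystrophy genes, Cerkl was the 1 called (4%, against 3.04% of all genes). Cerkl, a ceramide kinase-like gene mutated in retinal dystrophy, was at 22.29, 21.62 and 25.74 RPKM in BALB/c, against 6.51, 5.32 and 6.54 RPKM in C57BL/6J (adjusted p = 0.00034, log2 change 2.01, SE 0.12). It overlaps Itga4, an integrin gene, which was also higher (5.27 ± 0.767 against 1.98 ± 0.241 RPKM, log2 change 1.37, adjusted p = 0.0059). Both were kept in every omission, and since 25.1% of the exon length of Cerkl lies over other exons, reads of the pair cannot be fully told apart. Myo7a, a myosin of photoreceptors and pigment epithelium mutated in Usher syndrome, was the 1 called of 15 phagocytosis genes (2.71 ± 0.188 against 5.48 ± 0.856 RPKM, log2 change -0.73, adjusted p = 0.031). Its call was lost without any of the BALB/c libraries or C57BL/6J 2 (adjusted p up to 0.17). That 1 call was 6.67% of the phagocytosis list. No member was called among 12 photoreceptor transcription factors (median -0.22; 3 at an unadjusted p under 0.05) or 16 ribbon synapse genes (median -0.18; 1 at an unadjusted p under 0.05).

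Inner retinal lists held 1 call or none each. The called share was 7.14% of bipolar, 5.88% of ganglion and 0% of amacrine and horizontal cell genes, against 3.04% of all genes. Of 14 bipolar cell genes, Gng13, a G protein subunit of ON bipolar cells, was called higher (103 ± 1.68 against 70.3 ± 2.34 RPKM, log2 change 0.73, adjusted p = 0.022). That call was lost without any of the BALB/c libraries or C57BL/6J 1 (up to 0.17), and 51.6% of the exon length of Gng13 overlaps another gene. Prkca, which marks rod bipolar cells, was at 14.6 ± 0.632 RPKM in BALB/c and 16.2 ± 0.787 RPKM in C57BL/6J. Of 17 ganglion cell genes, Elavl4, a neuronal RNA-binding protein, was called lower (2.36 ± 0.0666 against 4.38 ± 0.683 RPKM, adjusted p = 0.047), a call kept only without C57BL/6J 3 (up to 0.26 in the other omissions). The neurofilament genes Nefl (62.75, 70.48 and 70.93 RPKM in BALB/c, against 117.19, 120.92 and 113.95 RPKM in C57BL/6J) and Nefm (15.6 ± 0.873 and 24.1 ± 2.16 RPKM) did not pass (log2 changes -0.61 and -0.44, adjusted p = 0.066 and 0.085). Exons of Nefl overlap another gene over 32.8% of their length and those of Nefm over 19.2%, so that their levels are uncertain. The ganglion cell list had a median of -0.24, and without C57BL/6J 3 its calls were 6 lower and 0 higher. None of 13 amacrine and horizontal cell genes was called (median -0.14; 2 at an unadjusted p under 0.05).

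In the pigmented tissues, melanin synthesis genes were present at like levels in both strains. Dct was at 520 ± 33.8 RPKM in BALB/c and 515 ± 48.6 RPKM in C57BL/6J, and Tyrp1 at 212 ± 12.8 and 213 ± 40.8 RPKM. The 1 called member of 16 was Mc1r, the melanocortin receptor of melanocytes, at 3.16, 3.72 and 3.71 RPKM in BALB/c, against 1.17, 1.26 and 1.54 RPKM in C57BL/6J (adjusted p = 0.0029, log2 change 1.29, SE 0.13), kept in every omission. Of the exon length of Mc1r, 17.9% overlaps another gene, so that its level is uncertain. The list median was 0.19 (6.25% called, against 3.04% of all genes), with 13 members above 0, but 0.01 with values as deposited. Of 19 pigment epithelium and visual cycle genes, Rbp4, the retinol carrier, was called higher (2.2 ± 0.243 against 1.04 ± 0.153 RPKM, log2 change 0.95, adjusted p = 0.013), lost without any of the BALB/c libraries (up to 0.096). That 1 call was 5.26% of the list. Rpe65, the visual cycle isomerase, was at 102.41, 101.45 and 114.05 RPKM in BALB/c and at 96.53, 81.69 and 56.05 RPKM in C57BL/6J. It was not called (log2 change 0.65, adjusted p = 0.25).

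**Figure D3:**
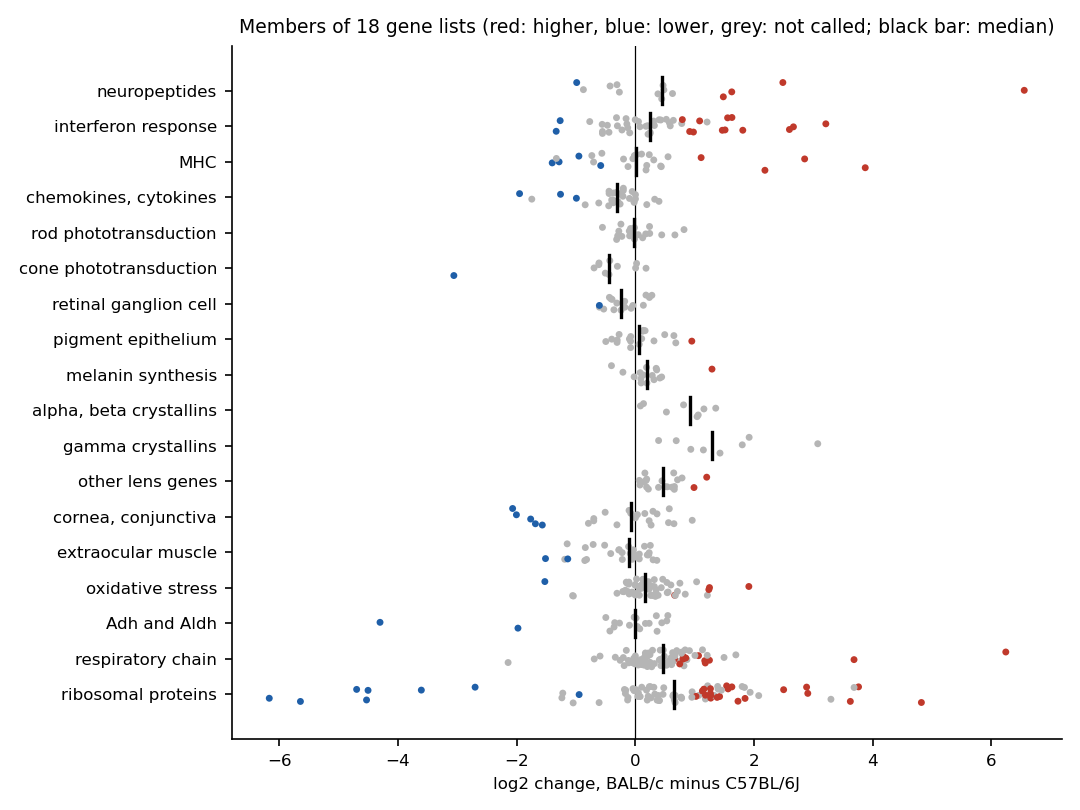
Log2 change, BALB/c minus C57BL/6J, of the tested members of 18 gene lists, with a black bar at each list's median. Red members were called higher, blue lower and grey not called; rods centre near 0, crystallins lie above 0 without a call (2 of the 16 below 0 with values as deposited), and the ribosomal proteins spread widely to both sides of 0.

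Lens crystallins, the refractive proteins of fibre cells, made up 50.1%, 49.8% and 48.9% of the RPKM sum in the BALB/c libraries 1, 2 and 3, against 37.1%, 43.9% and 29.6% in the C57BL/6J libraries 1, 2 and 3. The means were 49.6 ± 0.624% in BALB/c and 36.9 ± 7.15% in C57BL/6J (SD, n = 3 each), and an exact two-sided permutation test gave p = 0.1, the smallest that 3 against 3 libraries allow. All 16 crystallin genes had log2 changes above 0, though Crybb2 (-0.04) and Crybb3 (-0.09) lay below 0 with values as deposited, and none was called, with 5 of 8 alpha and beta and 6 of 8 gamma crystallins at an unadjusted p under 0.05. Cryga was at 20280, 17971 and 17516 RPKM in BALB/c, against 2293, 6315 and 1072 RPKM in C57BL/6J (adjusted p = 0.052, log2 change 3.07, SE 0.62). Its C57BL/6J libraries lay far apart, and 47.9% of its exon length overlaps another gene. Cryaa, an alpha crystallin chaperone, was at 39150, 53089 and 47036 RPKM in BALB/c, against 26762, 33118 and 18391 RPKM in C57BL/6J (log2 change 1.04, adjusted p = 0.14). Crybb2, by contrast, was at 39643, 36099 and 38584 RPKM in BALB/c and 38742, 37536 and 41408 RPKM in C57BL/6J (0.14), so the crystallins did not differ by a common factor. C57BL/6J 3 held the lowest value of 12 of the 16 crystallins, and without it the list medians were 0.57 for alpha and beta crystallins, against 0.93 with it, and 0.93 for gamma crystallins, against 1.29, with 4 and 5 members called higher. After quantile normalization the medians were 0.19 and 0.25.

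**Figure D4:**
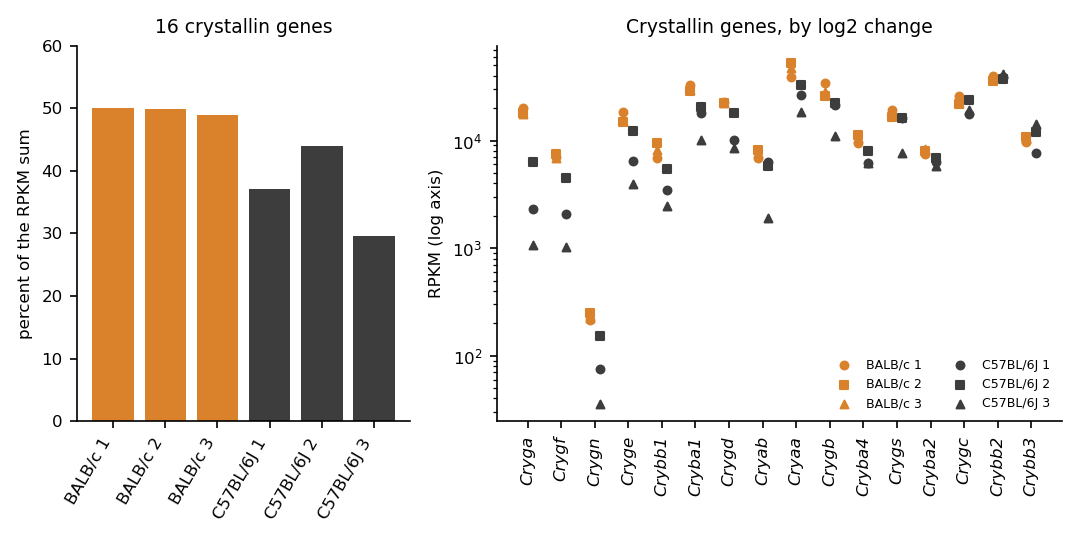
Left, percent of the RPKM sum taken by 16 crystallin genes in each library, with bars from 0. Right, RPKM of each crystallin gene on a log axis, BALB/c in orange to the left of C57BL/6J in grey, 1 marker per library and genes ordered by log2 change; C57BL/6J 3 (triangles) was the lowest library for most genes, and Crybb2, Crybb3 and Crygc overlapped between strains.

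All 20 tested lens genes other than crystallins also lay above 0 (median 0.47), but 16 did with values as deposited. Of these 20, 2 were called (10%, against 3.04% of all genes), or 5 without C57BL/6J 3. Grifin, a galectin of lens fibres, was at 998, 1010 and 1064 RPKM in BALB/c, against 583, 554 and 395 RPKM in C57BL/6J (adjusted p = 0.032, log2 change 1.20, SE 0.21). Prx, periaxin, which also serves in the fibre membrane skeleton, averaged 6.38 ± 0.473 RPKM in BALB/c and 3.45 ± 0.922 RPKM in C57BL/6J (adjusted p = 0.039, log2 change 0.99). The Grifin call was kept only without C57BL/6J 3 (adjusted p up to 0.19 in the other omissions), and that of Prx only without C57BL/6J 1 or 3 (up to 0.2). Mip, the lens aquaporin, was at 837 ± 39.5 RPKM in BALB/c and 619 ± 184 RPKM in C57BL/6J, and the beaded filament gene Bfsp1 at 862 ± 81.5 and 862 ± 87.9 RPKM, neither of them called. Exons of Mip overlap another gene over 57% of their length, so that its level is uncertain. With values as deposited the median of this list was 0.30.

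At the ocular surface, some keratins were called lower. Of 23 tested genes of cornea and conjunctiva, 5 were called lower and 0 higher (21.7%, against 3.04% of all genes), and all 5 are keratins of stratified epithelium. Without C57BL/6J 3 the calls were 2 higher and 7 lower. Krt4, a conjunctival keratin, was at 12.14, 11.03 and 10.81 RPKM in BALB/c, against 56.23, 32.06 and 94.12 RPKM in C57BL/6J (log2 change -2.07, adjusted p = 0.018). Krt13, its partner, was at 67.5 ± 5.35 against 239 ± 92.6 RPKM (-1.57), Krt15 at 137 ± 18 against 583 ± 333 RPKM (-1.76), Krt17 at 2.58 ± 0.319 against 14.6 ± 7.97 RPKM (adjusted p = 0.018) and Krt16 at -1.68. Krt12, the keratin specific to corneal epithelium, was not called (2500 ± 238 and 1930 ± 433 RPKM, log2 change 0.57), nor were Krt5 (0.30) and Krt14 (-0.79, adjusted p = 0.16), keratins of basal cells, and the list median was -0.08. None of the 5 calls was kept in every omission: each was lost without any of the BALB/c libraries, and also without C57BL/6J 1 (Krt4, Krt13, Krt15, Krt17) or C57BL/6J 2 (Krt16), with adjusted p up to 0.11, 0.12, 0.21, 0.11 and 0.18. Krt16 shares 51.9% of its 31-mers with other loci, and 54.4% of the exon length of Krt12 overlaps another gene, so that both levels are uncertain. The kallikreins Klk10 (0.47 ± 0.19 against 2.43 ± 0.593 RPKM, log2 change -1.48) and Klk11 (-0.77), neighbours that epithelia express, were lower as well, Klk10 with a call lost without any of the BALB/c libraries (0.084). How much conjunctiva came with each eye was not measured.

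Of 16 genes of ciliary and aqueous transport, 3 were called higher (18.8%, against 3.04% of all genes). The list median was 0.23, or 0.05 with values as deposited. Car4, a carbonic anhydrase of vessel and epithelial surfaces, was at 2.28, 3.17 and 3.27 RPKM in BALB/c, against 0.45, 0.64 and 0.7 RPKM in C57BL/6J (adjusted p = 0.0028, log2 change 1.76, SE 0.17) and kept in every omission. Aqp5, the aquaporin of corneal epithelium (553 ± 71.5 against 359 ± 41 RPKM, log2 change 0.80), and Slc4a11, a transporter of corneal endothelium (0.64), were each kept only without C57BL/6J 3 (adjusted p up to 0.23 and 0.2 in the other omissions). Aqp6, which lies next to Aqp5, was higher too (log2 change 0.99, adjusted p = 0.011), a call lost without any of the BALB/c libraries (0.086). Among 16 glaucoma and outflow genes, Myoc, myocilin of the trabecular meshwork, was at 119.11, 97.28 and 84.34 RPKM in BALB/c, against 68.89, 51.11 and 55.85 RPKM in C57BL/6J (log2 change 0.94, adjusted p = 0.045), a call lost without any of the BALB/c libraries or C57BL/6J 2 (up to 0.21). Chi3l1, a chitinase-like glycoprotein, was lower (19.4 ± 0.633 against 84 ± 22.4 RPKM, log2 change -1.88, adjusted p = 0.005) and kept in every omission. Myoc and Chi3l1 were 12.5% of the glaucoma and outflow list.

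In the muscle list 2 of 29 genes were called (6.9%, against 3.04% of all genes), both lower. Tnni1, the troponin of slow fibres, was at 8.3, 7.42 and 7.94 RPKM in BALB/c, against 23.53, 22.29 and 35.28 RPKM in C57BL/6J (adjusted p = 0.0035, log2 change -1.51, SE 0.15), and Mb, myoglobin, at 162 ± 27.8 against 411 ± 110 RPKM (-1.14, adjusted p = 0.036). Tnni1 was kept in every omission and Mb was lost without any of the BALB/c libraries or C57BL/6J 1 (up to 0.2). Of the exon length of Mb, 31.9% overlaps another gene, so that its level is uncertain. The list median was -0.11, and the fast-fibre genes Myh4 (30.5 ± 4.3 and 30 ± 8.76 RPKM) and Myh2 were not called. Without C57BL/6J 3 the list had 12 lower calls. Comp and Chad were chosen after their values were seen. Comp, an oligomeric matrix protein of cartilage and tendon, was at 1.74, 1.64 and 1.69 RPKM in BALB/c, against 16.31, 14.41 and 11.86 RPKM in C57BL/6J (log2 change -2.58, adjusted p = 0.00045), kept in every omission. Chad, chondroadherin of the same tissues, was at 8.7 ± 1.32 against 37.2 ± 12.8 RPKM (-1.81, adjusted p = 0.028), a call kept only without C57BL/6J 3 (up to 0.16 in the other omissions). Col4a6, a basement membrane collagen chain, was at 0.29, 0.26 and 0.35 RPKM in BALB/c, against 4.06, 6.27 and 6.06 RPKM in C57BL/6J (log2 change -2.76, adjusted p = 0.00044), and was the 1 call among 67 extracellular matrix genes (1.49%, median 0.08), which held 1 higher and 11 lower calls without C57BL/6J 3. It was kept in every omission. No gene was called among 19 vascular genes (median -0.02; 2 at an unadjusted p under 0.05), 5 blood genes (1) or 12 myelin genes (0). The myelin median was 0.64, or -0.10 without C57BL/6J 3.

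Some genes that glands secrete were named by size or chosen after their values were seen. Car6, the secreted carbonic anhydrase of lacrimal and salivary glands, was at 14.53, 12.88 and 16.44 RPKM in BALB/c, against 3.74, 2.86 and 2.22 RPKM in C57BL/6J (adjusted p = 0.002, log2 change 2.31, SE 0.21). The adjacent proline-rich protein genes Prb1 (4.08 ± 0.963 against 0.08 ± 0.0755 RPKM, log2 change 3.07) and Prpmp5 (5.88 ± 1.24 against 0.227 ± 0.101 RPKM, log2 change 3.25) were higher, and share 44.5% and 45.1% of their 31-mers with other loci. Car6, Prb1 and Prpmp5 were kept in every omission. Of 10 lacrimal and Harderian gland genes, 2 were higher (20%, against 3.04% of all genes). They were Cidea, a lipid droplet protein (4.9 ± 1.64 against 1.32 ± 0.102 RPKM, log2 change 1.67), and Acaa1b, a peroxisomal thiolase that shares 40% of its 31-mers (log2 change 1.41). The list median was 0.04, with 4 members below 0. The gland markers summed to 16.8 to 28.6 RPKM in BALB/c and to 10.7 to 20.6 RPKM in C57BL/6J. Cidea was lost without BALB/c 3 (adjusted p = 0.08). Tpsab1, a mast cell tryptase, was higher (3.49 ± 0.327 against 0.137 ± 0.0681 RPKM, log2 change 2.76, adjusted p = 0.00015), while Hdc, the histamine-forming enzyme that mast cells also express, was lower (0.55 ± 0.0458 against 3.62 ± 1.76 RPKM, log2 change -1.76, adjusted p = 0.015). Tpsab1 was kept in every omission and Hdc was lost without any of the BALB/c libraries or C57BL/6J 1 (0.098).

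Metabolic and detoxifying enzymes showed some of the clearest single-gene differences. Adh6a, an alcohol dehydrogenase, was at 0.22, 0.2 and 0.16 RPKM in BALB/c, against 17.49, 11.86 and 13.84 RPKM in C57BL/6J (adjusted p = 3.6e-05, log2 change -4.30, SE 0.16). Adh7, the class IV enzyme that oxidises retinol and ethanol in epithelia, was at 20.09, 17.3 and 16.82 RPKM in BALB/c, against 99.09, 61.26 and 90.42 RPKM in C57BL/6J (log2 change -1.98, adjusted p = 0.0022). Both were kept in every omission. They were the 2 calls among 20 alcohol and aldehyde dehydrogenase genes (10%, against 3.04% of all genes). The list median was 0, with changes from -4.30 to 0.55. Aldh3a1, the abundant aldehyde dehydrogenase of cornea, was at 1674, 2033 and 2054 RPKM in BALB/c and at 1947, 1263 and 2542 RPKM in C57BL/6J and was not called. Alad, the enzyme that forms porphobilinogen for haem, was at 75.34, 94.25 and 95.34 RPKM in BALB/c, against 26.48, 21.34 and 30.03 RPKM in C57BL/6J (adjusted p = 0.001, log2 change 1.93, SE 0.15). The gene next to it, Hdhd3, rose by a similar amount (17.7 ± 0.871 against 4.4 ± 0.867 RPKM, log2 change 2.07), and both were kept in every omission.

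Of 59 glutathione and antioxidant genes, 4 were called higher and 1 lower (8.47%, against 3.04% of all genes; median 0.16, or -0.02 with values as deposited). The omissions gave 2 to 14 higher and 0 to 3 lower, with 14 and 3 without C57BL/6J 3. The glutathione transferases Gstm2 (22.3 ± 1.47 against 10.3 ± 0.581 RPKM, log2 change 1.25, adjusted p = 0.0026) and Gstp2 (4.11 ± 0.707 against 0.857 ± 0.329 RPKM, log2 change 1.91) rose and were kept in every omission. Gstp1, beside Gstp2, was higher as well (1.24), and the pair shares 38.5% and 60.3% of 31-mers with other loci. Gsto1, the omega transferase, was at 801.95, 692.44 and 807.46 RPKM in BALB/c, against 3055, 1721 and 2956 RPKM in C57BL/6J (log2 change -1.52, adjusted p = 0.015), and Mgst3 was higher (0.66). The Gsto1 call was lost without any of the BALB/c libraries (up to 0.11), that of Gstp1 also without C57BL/6J 1 (0.18) and that of Mgst3 also without C57BL/6J 2 (0.25). Gpx3, a secreted peroxidase, was at 82.9 ± 3.2 RPKM in BALB/c and 206 ± 83 RPKM in C57BL/6J without passing (adjusted p = 0.085). In glycolysis, Hk2, a hexokinase, was lower (14.8 ± 0.502 against 34.8 ± 4.45 RPKM, log2 change -1.03, adjusted p = 0.0043; 0.055 without BALB/c 3) and Pgam1, a phosphoglycerate mutase that shares 37.1% of its 31-mers, was higher (1.03; up to 0.097 without a BALB/c library), with a median of 0.09 over 23 genes.

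Ribosomal protein genes, whose processed copies are scattered over the genome, held the largest fall of the comparison and several large rises. Of 83 tested, 21 were called higher and 8 lower (34.9%, against 3.04% of all genes), with a median of 0.66. Rpl26 was at 1.09, 1.48 and 1.93 RPKM in BALB/c, against 194.97, 119.25 and 167.13 RPKM in C57BL/6J (log2 change -6.17, adjusted p = 3.5e-05). Rps25, in contrast, was at 180.39, 185.05 and 202.05 RPKM in BALB/c, against 8.38, 15.41 and 36.72 RPKM in C57BL/6J (log2 change 3.62, adjusted p = 0.0075). Genes of the same particle thus differed by large factors in opposite directions. Rps2 (-5.64), Rpl29 (-4.70), Rps18 (-4.53), Rpl3 (-4.50) and Rpl30 (-3.61) also fell, and Rpl36 (3.76), Rps29 (2.90), Rpl38 (2.88), Rps23 (2.50) and Rps21 (1.85) rose.

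Of these 83 genes, 50 share at least 20% of their 31-mers with another locus. They held 14 higher and 6 lower calls and had a median of 0.90, whereas the 33 that share less held 7 and 2 and had a median of 0.39. Over all genes, 20% of those that share sequence were called (91 of 454), against 2.38% of those that do not (288 of 12107) and 4.57% of 219 genes not paired with the annotation. Rpl36 shares 94%, Rpl29 44.9%, Rps2 43.4%, Rpl3 35.6%, Rpl26 27.1% and Rps18 23%, so their levels are uncertain, whereas Rpl30 shares 9.35% and Rps25 16.7%. Exons of both Rpl30 and Rps25, however, overlap another gene over 24.8% of their length, so that these levels are uncertain as well. Counts over the omissions ran from 5 to 44 higher and from 6 to 11 lower. Rpl36 was lost without any of the BALB/c libraries or C57BL/6J 3 (adjusted p up to 0.097), Rps25 without BALB/c 1 or 3 (0.058) and Rps23 without each library but C57BL/6J 3 (0.12).

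**Figure D5:**
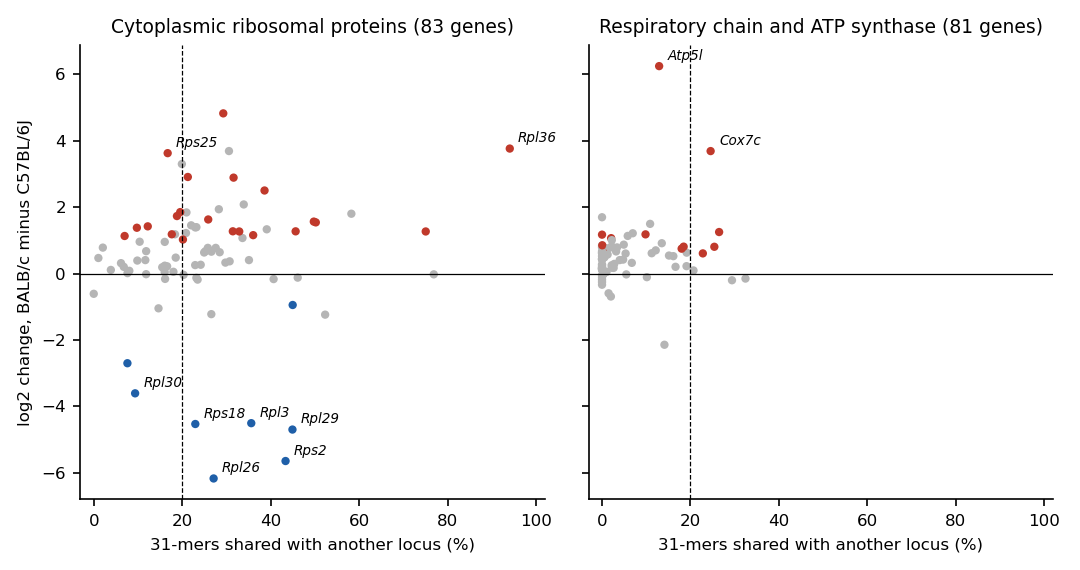
Log2 change, BALB/c minus C57BL/6J, against the percent of 31-mers that a gene's transcripts share with another locus, for 83 ribosomal protein genes on the left and 81 respiratory chain genes on the right. The dashed line marks 20%; red genes were called higher and blue genes lower, grey genes were not called, and 10 of the genes described in the text are named.

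Nuclear genes of the mitochondrial respiratory chain and ATP synthase were called higher in 12 and lower in 0 of 81 cases (14.8%, against 3.04% of all genes), with a median of 0.47 and 67 members above 0. The omissions gave 2 to 30 higher and 0 to 3 lower, with 30 and 3 without C57BL/6J 3, and values as deposited gave 8 and 1. Atp5l, an ATP synthase subunit, was at 53.44, 83.1 and 75.5 RPKM in BALB/c, against 2.18, 0 and 0.28 RPKM in C57BL/6J (adjusted p = 0.0022, log2 change 6.24, SE 0.57). Cox7c, a cytochrome oxidase subunit that shares 24.6% of its 31-mers, was at 13.45, 15.72 and 21.08 RPKM in BALB/c, against 1.02, 2.22 and 0.22 RPKM in C57BL/6J (log2 change 3.68, adjusted p = 0.0097). The complex I subunits Ndufs5 (1.25), Ndufc1 (1.18), Ndufa3 (1.17) and Ndufa1 (1.06) rose by smaller amounts. Only Atp5l and Ndufs5 of the 12 were kept in every omission, and Cox7c was lost without any of the BALB/c libraries (up to 0.064). Ndufs5 shares 26.5% of its 31-mers with other loci, so that its level is uncertain. Over all genes the log2 change fell with transcript length (Spearman -0.26 across 12561 genes, which are not independent). The median change was 0.14 in the fifth with the shortest transcripts and -0.08 in the fifth with the longest. After length correction the respiratory chain list held 7 higher and 1 lower, with a median of 0.22, and the ribosomal protein list 14 and 8, with a median of 0.41. Mitochondrial ribosomal proteins held 3 higher and 0 lower of 74 (4.05%, near the share over all genes; median 0.26, or 0.13 after length correction), with 14 higher without C57BL/6J 3 and 9 after GC correction. They were led by Mrps36 (7.19 ± 0.42 against 0.813 ± 0.284 RPKM, log2 change 2.70), which shares 21% of its 31-mers.

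Several of the clearest differences lay outside the lists and were named by size or chosen after their values were seen. Cyp24a1, the enzyme that degrades active vitamin D, was at 4, 4.21 and 3.9 RPKM in BALB/c, against 0.26, 0.26 and 0.32 RPKM in C57BL/6J (adjusted p = 5.9e-05, log2 change 2.66, SE 0.11). Rtkn2, rhotekin 2, was at 6.45 ± 0.52 against 0.453 ± 0.0981 RPKM (2.99), Tgm3, an epidermal transglutaminase, at 2.05 ± 0.141 against 0.0967 ± 0.0231 RPKM (2.19), and Grem1, an antagonist of bone morphogenetic proteins, at 3.25 ± 0.542 against 0.553 ± 0.186 RPKM (1.96). In the other direction, Rec8, a meiotic cohesin, was at 0.183 ± 0.0723 against 4.42 ± 0.303 RPKM (-2.75), and Pttg1, securin, at 1.83 ± 0.123 against 14.6 ± 1.91 RPKM (-2.53). Mcoln3, a lysosomal cation channel (1.52 ± 0.0954 against 5.23 ± 0.164 RPKM, -1.36), and Plekha4 (5.15 ± 0.664 against 18.6 ± 1.31 RPKM, -1.59) were lower. Apoa2, an apolipoprotein of high-density lipoprotein, was listed at 0 in all 3 BALB/c libraries and at 1.61, 1.18 and 1.24 RPKM in C57BL/6J (adjusted p = 0.00099). These 9 genes were kept in every omission. The falls named by size further included Pbp2, a phosphatidylethanolamine-binding protein (0.23 ± 0.0954 against 15.4 ± 5.06 RPKM, -4.29), Trim12 (0, 0.02 and 0 against 5.51, 2.36 and 3.95 RPKM) and Pglyrp4, a peptidoglycan recognition protein (0.0867 ± 0.117 against 7.07 ± 4.27 RPKM; adjusted p = 0.0068, or 0.051 without BALB/c 3). The rises included Dynlt1, a dynein light chain (8.81 ± 1.79 against 0.463 ± 0.148 RPKM, 3.39), whose shared sequence was not determined. They also included Usmg5, a small ATP synthase-associated protein (60.8 ± 5.03 against 8.59 ± 6.6 RPKM, 3.27). The adjusted p of Usmg5 was 0.038, up to 0.18 without a BALB/c library and 0.12 without C57BL/6J 3.

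Some called genes were neighbours. With genes ordered along their chromosomes by the annotation, 63 of 379 placed called genes (16.6%) lay directly next to another called gene, and 8.72% of the direct neighbours of called genes were called, against 3.02% of all placed genes. The 33 adjacent pairs moved in the same direction in 26 cases. Besides Oxt with Avp, Ifi44 with H28, Oas2 with Oas3, Hdhd3 with Alad and Itga4 with Cerkl, the same-direction pairs included Thg1l (log2 change 1.57) with the transcription factor gene Sox30 (2.15), Slfn2 (1.12) with Slfn4 (1.57) and Krt13 with Krt15. The call of Thg1l was lost without BALB/c 1 or 3 (adjusted p up to 0.076) and that of Slfn2 without BALB/c 2 or 3 (up to 0.054). Serpina3h with Serpina3n and Rbp4 with Pde6c were among the pairs that moved apart. The called share per chromosome ran from 1.45% on chromosome 18 to 4.26% on chromosome 17, which carries the MHC. Neighbours of like sequence, such as the Serpina3, Gstp and H2 genes, can exchange reads, and the part of this in the pairs was not tested.

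The remaining lists held 1 call or none. No member was called among 27 clock genes (median -0.14), 25 immediate early genes (0.01) or 35 apoptosis genes (0.04), of which 3, 4 and 6 had an unadjusted p under 0.05. Among 35 heat shock and chaperone genes, Hspa8, which shares 41.5% of its 31-mers, was called lower (38.4 ± 4.03 against 82.2 ± 6.22 RPKM, log2 change -0.91, adjusted p = 0.016, up to 0.11 without a BALB/c library and 0.053 without C57BL/6J 2). Among 25 autophagy genes, Gabarapl2, an Atg8 relative, was higher (38.2 ± 1.26 against 11.6 ± 5.88 RPKM, log2 change 1.96, adjusted p = 0.014, up to 0.091 without a BALB/c library or C57BL/6J 2). Of 39 tested clustered protocadherins, Pcdhb6 was called lower (-0.66, adjusted p = 0.048), kept only without C57BL/6J 1 or 3 (up to 0.25 in the other omissions), and the list median was -0.35, or 0.05 without C57BL/6J 3.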

How the data were processed

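Poly(A) RNA of whole eyes was sequenced from random-primed cDNA. The deposited tables hold 1 value per gene for 13089 genes. Their headers name no unit, and the values were read as RPKM because value times transcript length summed to 108.5% to 126.6% of the total that RPKM would give. The submitters' processing notes name CASAVA 1.7, GenomeStudio and mm9, and how GenomeStudio treated reads of repeated sequence is not given in the sources used here. Read depth is unknown, so no counting intervals are given.

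Genes that reached 1 RPKM in at least 3 of the 6 libraries were tested. Libraries were scaled by size factors from the median of ratios, and log2(value + 0.5) was fitted with limma 3.58.1 in R 4.3.3, with strain as the only term, trended and robust variance and two-sided tests. Genes were called at a Benjamini-Hochberg adjusted p under 0.05 over all genes tested. Log2 changes are BALB/c minus C57BL/6J on this scale, which understates the change of low genes, whereas printed RPKM are as deposited. Errors are SD over 3 libraries. Tables were made with Python 3.11.15, pandas 2.3.3, numpy 2.4.6 and scipy 1.17.1, and the fit was tested on simulated data.

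The files' build, mm9, was not at hand. GENCODE M21 of GRCm38 served for names, length, GC content, gene order and 31-mers shared with other loci. It paired 12859 genes (98.2%), 1690 of them by an older symbol. Genes that share at least 20% of their 31-mers, or whose exons overlap another gene, have uncertain levels.

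Genes were named by a rule. It took, leaving out clone names, the 12 top rises and the 12 top falls whose log2 change was 1 or more, whose strains did not overlap and whose higher strain averaged 2 RPKM or more. It added from each gene list the 3 called members of smallest adjusted p, all called neuropeptide, MHC, serpin, crystallin and known-allele genes, and H2-Ea, Nnt, Zhx2 and Tyr. This gave 85 genes, and others were chosen after their values were seen. The members and lists were chosen with earlier results of these data known. Lists are described by counts and medians, without a test of the list. Alternatives covered the pseudocount, filter, scaling, variance model, library weights, GC content, transcript length, shared sequence, a replicate block and the omission of each library. Some genes are not reported here.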

Additional observations from a re-analysis of the deposited data

How the results depend on the processing

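Against 389 called genes (239 higher, 150 lower), weighting of the libraries by their closeness to the strain means gave 692 (426 and 266). The weights were 1.28 to 6.74 for the BALB/c and 0.166 to 0.557 for the C57BL/6J libraries. Removal of genes with shared sequence gave 218 (128 and 90), and values as deposited gave 143 higher. Counts over the 6 omissions of a library ran from 104 to 1625, with 62 to 900 higher and 42 to 725 lower. A block on the replicate number gave 235 (138 and 97), and with GC correction 183 (105 and 78). Equal numbers do not pair the samples by label, and correlations of deviations were 0.34, 0.02 and 0.10 for numbers 1, 2 and 3, with BALB/c 2 closest to C57BL/6J 3 (0.22). The causes were not tested. Pseudocounts of 0.1 and 1, no filter, quantile normalization, a fit of all 9 libraries, an untrended variance, GC correction and length correction kept the count between 348 and 458. None of the results changed direction while called. Of the alternative values of single genes, 3326 stayed on their side of the threshold, 413 lost the call and 59 gained one. Of list medians, 779 stayed and 95 moved. Unknown depth and 3 libraries per strain, 1 of which stood apart, limit what could be detected.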
